A study of Rattus norvegicus with 14 samples.

Results

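The 9 genes described here encode junction proteins of the blood-brain barrier and were measured in the motor cortex of spinal cord injured male rats: Cldn5, Cldn12, Ocln, Tjp1, Cdh5, Esam, F11r, Jam2 and Marveld2. They were chosen by gene symbol, with Cldn5 in the lead because its MSC and vehicle values had already been seen to differ on these arrays. All 9 genes were found, each on 1 probe set with 1 gene symbol, out of 22098 genes with 1 symbol and 68842 tested probe sets. Each is described by the log2 expression value of that probe set, on which a difference of 1 is a doubling. Group differences of the 9 genes are given as a description, since Cldn5 was picked on this contrast.

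Per the labels, all rats carried the injury and received cyclosporine A, an immunosuppressant, every day. The first group was infused with MSC, which commonly stands for mesenchymal stromal (or stem) cells, through the femoral vein 24 hours after the injury, and the second with vehicle by the same route. The cortex was collected on day 3 after infusion, and each group holds 7 arrays. The strain and age of the rats, the source of the cells and the content of the vehicle are not named in the sources used here, and nothing states that each array is a separate rat. There was no uninjured group, so the comparison concerns the infusion and not the injury.

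Brain endothelial cells seal the space between them with tight junctions, in which claudins and the MARVEL proteins occludin and tricellulin span the membrane and scaffold proteins tie them to actin. Claudin-5 is the dominant claudin of brain vessels, and mice without it have a barrier that leaks small molecules. Adherens junctions built on VE-cadherin lie beside the tight junctions, and in cultured endothelium VE-cadherin is known to support Cldn5 expression. Several of these proteins are not confined to vessels: occludin, ZO-1 and JAM-A also seal epithelia such as the choroid plexus, and JAM-A is found on platelets and leukocytes.

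The arrays resembled each other closely, with correlations of 0.990 to 0.997 between any 2 of them. Mean values of all 9 genes lay above 5.84, the median over tested probe sets and a rough mark of dim signal. All 10 neuron, 9 astrocyte, 9 oligodendrocyte and 8 microglia markers measured also lay above that mark. Among the 14 arrays, MSC replicate 4 and vehicle replicate 2 stood apart by choroid plexus genes. Ttr, transthyretin, was at 16.91 and 16.81 on these arrays against 6.63 to 10.01 on the other 12, and Kl, the klotho gene, at 11.77 and 11.45 against 4.86 to 5.9. Differences and correlations of the 9 genes are therefore given with and without these arrays. In spike-in controls, replicates 6 and 7 of both groups lay apart from replicates 1 to 5, the dap control, for example, reading 8.12 or less there and 8.35 or more on the rest. The labels name no batch, and values within both sets are given for Cldn5.

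Cldn5 had the lower mean in the MSC group, and the other 8 genes had means that differed by 0.16 or less on the log2 scale. In limma, 0 of the 9 passed an adjusted p of 0.05, as did 0% of all tested probe sets. At an unadjusted p below 0.05 there was 1 gene, Cldn5, against 2.41% of all probe sets lower and 1% higher. Means were lower in the MSC group for 4 of 9 genes, beside 58% of all probe sets and 52.3% of genes with 1 symbol. The median difference over the 9 genes was 0.0011, against -0.0038 over all genes with 1 symbol. In bulk tissue, fewer endothelial cells and less RNA per cell cannot be told apart.

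**Figure D1:**
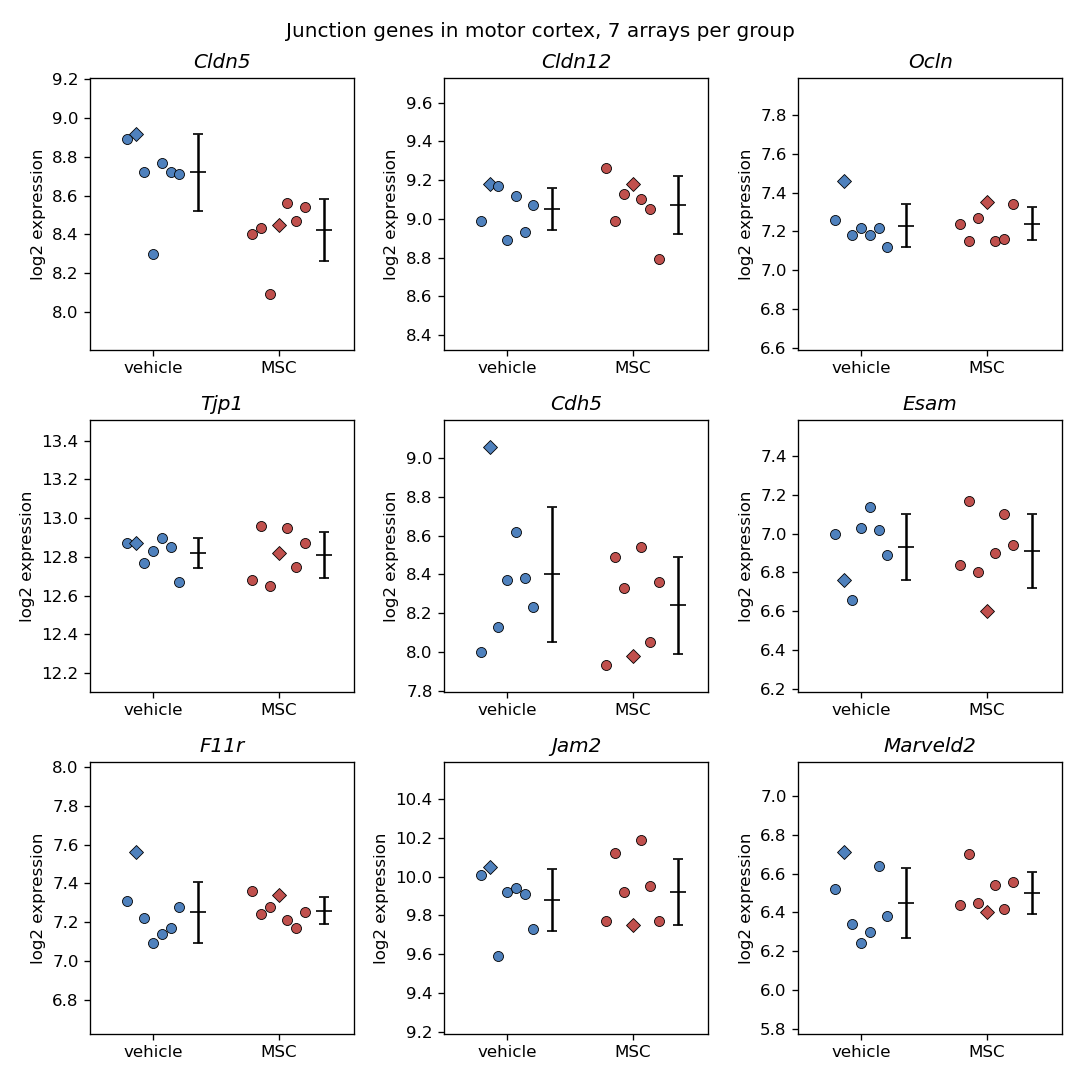
Log2 expression of the 9 junction genes on every array, with 7 vehicle arrays (blue) and 7 MSC arrays (red) in replicate order within each group; black bars are the mean and SD, and each vertical axis spans the same range. Diamonds mark MSC replicate 4 and vehicle replicate 2, the arrays with high choroid plexus markers. Cldn5 is the gene whose groups lie furthest apart, with 6 of 7 vehicle arrays above every MSC array.

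Claudin-5 is encoded by a compact gene of 1427 bases at chr11:95717172-95718598 of the rat assembly GRCr8. On the MSC arrays Cldn5 ran from 8.09 to 8.56 with a median of 8.45, and on the vehicle arrays from 8.30 to 8.92 with a median of 8.72. The groups overlapped through a single array: vehicle replicate 4, at 8.30, lay among the MSC arrays, and the other 6 vehicle arrays, from 8.71 upward, lay above all 7 MSC arrays. Means were 8.42 ± 0.16 and 8.72 ± 0.20 (SD, n = 7 each), a difference of -0.30 ± 0.093 (SE), or 1.23-fold higher in vehicle. All 7 MSC arrays lay below the vehicle mean, which held for 3.57% of tested probe sets. The adjusted p in limma was 0.9999, and 1.04% of probe sets had a difference as low or lower. Groups did not overlap at all for 0 of the 9 genes and for 0.032% of probe sets.

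The difference of Cldn5 kept its sign in every subset examined. These subsets reuse the arrays on which Cldn5 was picked, so they are a description and no independent check. Within replicates 1 to 5 it was -0.33 ± 0.13 (SE), and within replicates 6 and 7, with 2 arrays per group, -0.21 ± 0.11. Without both choroid plexus arrays it was -0.27 ± 0.10. Leaving out single arrays gave -0.37 (without vehicle replicate 4) to -0.24 (without MSC replicate 3). One free-text label of MSC replicate 7 says vehicle where its title says MSC, and Cldn5 stood at 8.54 there, below the 8.71 of the lowest vehicle array but replicate 4.

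The promoter window of Cldn5 in RefSeq (GRCr8), 250 bases before to 50 after the start site, is shown because Cldn5 is the gene whose group means lay furthest apart, together with that of F11r, the only other of the 7 genes with a listed window to hold the same motif. Capitals mark the CCAAT box, searched as CCAAT and its reverse complement ATTGG on both strands.
Cldn5, chr11:95718549-95718848, minus strand: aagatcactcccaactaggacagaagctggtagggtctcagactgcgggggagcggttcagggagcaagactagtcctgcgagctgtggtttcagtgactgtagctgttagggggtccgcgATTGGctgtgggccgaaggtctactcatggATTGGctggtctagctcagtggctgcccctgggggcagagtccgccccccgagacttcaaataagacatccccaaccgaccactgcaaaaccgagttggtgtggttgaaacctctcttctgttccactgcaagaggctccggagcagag
F11r, chr13:86405979-86406278, plus strand: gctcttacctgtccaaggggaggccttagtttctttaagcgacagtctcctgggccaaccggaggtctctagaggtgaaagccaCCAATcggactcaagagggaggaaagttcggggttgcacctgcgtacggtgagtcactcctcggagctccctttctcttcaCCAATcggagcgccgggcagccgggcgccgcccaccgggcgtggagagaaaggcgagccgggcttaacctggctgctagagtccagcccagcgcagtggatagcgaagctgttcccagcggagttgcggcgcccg

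Each of these windows held 2 CCAAT boxes. Of 33469 rat promoter windows of this length, 37.5% held at least 1 CCAAT box and 11.2% held 2 or more. The listed windows of Cldn12, Ocln, Tjp1, Jam2 and Marveld2 held 0. For 4 of these, the start site that the window covers is an inner one, lying inside the annotated gene: 1009 bases from its start for Ocln, 1273 for Jam2, 4842 for Cldn12 and 179658 for Tjp1. The core of ETS factors, GGAA or TTCC, which endothelial regulators such as ERG recognise, occurred once in the Cldn5 window. The other listed windows held 2 (F11r) to 7 (Tjp1). Of all windows 95.8% held at least 1 and 84.5% held 2 or more, with a median of 3. No ETS match overlapped a CCAAT box in any of the 7 windows. The SOX core ACAAT or ATTGT and the E-box CACGTG had 0 matches in the Cldn5 window, against 33.7% and 6.42% of windows with at least 1. A match of letters is a description of the window only.

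The other claudin, Cldn12, is expressed beyond the endothelium and lies on chromosome 4. It ran from 8.79 to 9.26 on MSC arrays (median 9.10) and from 8.89 to 9.18 on vehicle arrays (median 9.07), so that the groups overlapped over nearly their whole range. The difference was 0.024 ± 0.073 (SE), with a 95% interval of -0.13 to 0.18. Across arrays, with the group means removed, Cldn12 had r = 0.12 with Cldn5 and -0.54 with Esam, and 0 and -0.45 without the choroid plexus arrays.

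Occludin and tricellulin, encoded by Ocln and Marveld2, are MARVEL proteins of the strands between cells and of the corners where 3 cells meet. Their genes lie 32542 bases apart on chromosome 2. Ocln ran from 7.15 to 7.35 in MSC (median 7.24) and from 7.12 to 7.46 in vehicle arrays (median 7.22), a difference of 0.0011 ± 0.059 (SE). Marveld2 ran from 6.40 to 6.70 (median 6.45) and from 6.24 to 6.71 (median 6.38), a difference of 0.054 ± 0.078. In both genes every MSC array lay within the range of the vehicle arrays, while 5 vehicle arrays of Marveld2 and 2 of Ocln lay outside that of the MSC arrays. The upper bounds of their 95% intervals were 0.13 and 0.22. Despite their closeness on the chromosome and their shared place in the junction, the pair had r = 0.36 across the 14 arrays with group means removed, and 0.07 without the choroid plexus arrays.

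The junctional adhesion molecules are immunoglobulin-like proteins that line the contacts between endothelial cells. F11r, which encodes JAM-A, ran from 7.17 to 7.36 in MSC (median 7.25) and from 7.09 to 7.56 in vehicle arrays (median 7.22), a difference of 0.013 ± 0.068 (SE). Jam2, encoding JAM-B, ran from 9.75 to 10.19 and from 9.59 to 10.05 with a median of 9.92 in both groups, a difference of 0.043 ± 0.087 (SE). Esam, an adhesion molecule of endothelium and platelets, ran from 6.60 to 7.17 (median 6.90) and from 6.66 to 7.14 (median 7.0), a difference of -0.023 ± 0.092. The groups overlapped in each of these 3 genes, with 2 arrays of Esam, 3 of F11r and 4 of Jam2 outside the range of the other group. Their 95% intervals were -0.13 to 0.16 for F11r, -0.14 to 0.23 for Jam2 and -0.22 to 0.17 for Esam.

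ZO-1, encoded by Tjp1, is the scaffold that binds claudins, occludin and JAMs to the cytoskeleton. It ran from 12.65 to 12.96 in MSC (median 12.82) and from 12.67 to 12.90 in vehicle arrays (median 12.85), the narrowest range over all 14 arrays among the 9 genes, and differed by -0.010 ± 0.061 (SE). The sign of this small difference turned after repeated quantile normalization and after median centring of the arrays.

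VE-cadherin, encoded by Cdh5, is the adherens junction protein of endothelium and had the widest range. It ran from 7.93 to 8.54 in MSC (median 8.33) and from 8.0 to 9.06 in vehicle arrays (median 8.37). The difference of -0.16 ± 0.15 (SE) rested on vehicle replicate 2, which stood at 9.06 while the next vehicle array stood at 8.62. Without that array the difference was -0.048, and without both choroid plexus arrays it was -0.0037 ± 0.12. In the same 12 arrays Cldn5 differed by -0.27. The other 7 genes differed there by -0.0037 (Tjp1) to 0.11 (Marveld2), with Jam2 at 0.10 ± 0.092, F11r at 0.052 ± 0.057 and Esam, whose sign turned, at 0.00092 ± 0.089 (SE).

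**Figure D2:**
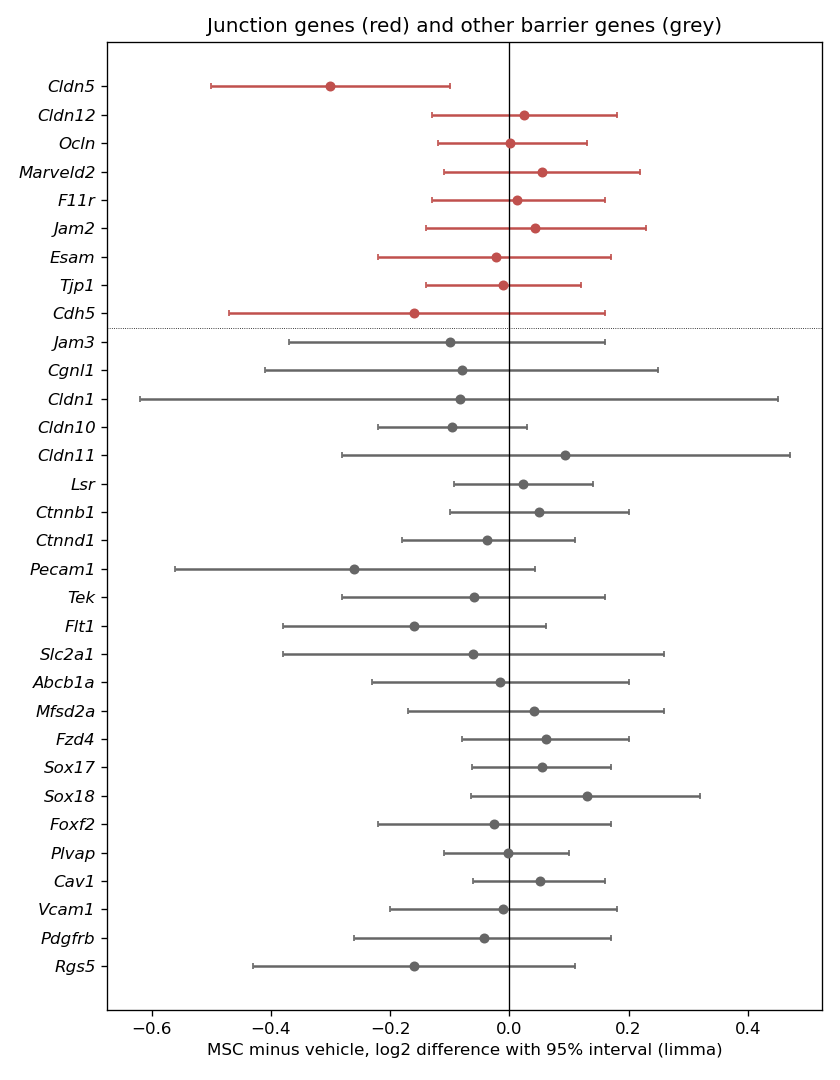
MSC minus vehicle log2 differences with 95% intervals from limma, for the 9 junction genes (red) and 23 other barrier and vessel genes (grey). The interval of Cldn5, which was chosen on this contrast, was -0.50 to -0.10. Several vessel genes that are not drawn also had intervals clear of 0, among them Ly6c (-0.53 to -0.14) and Emcn (-0.63 to -0.055); 0 genes passed the adjustment over all probe sets.

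The 9 genes did not vary as a block across arrays. Over their 36 pairs, the correlation of deviations from the group means had a median of 0.18 and ran from -0.56 (Esam and F11r) to 0.73 (Ocln and F11r). In 7 pairs it was above 0.5: besides Ocln and F11r these were Tjp1, Cdh5 and Esam, each with Jam2, and Cldn5, Cdh5 and F11r, each with Marveld2. Without the choroid plexus arrays the median was 0.09 and 4 pairs were above 0.5, of which Tjp1 and Esam, each with Jam2, were among the 7. Cdh5 and F11r then had r of 0.14 and 0.23 with Marveld2, where all arrays gave 0.51 for both, Cldn5 with Marveld2 had 0.47, and Cdh5 with Jam2 0.49. The lowest value was then -0.59, of Cdh5 and F11r, and Esam and F11r were at -0.49. These correlations share the scaling of the arrays and any spread in the dissected tissue. For scale, correlations with Cldn5 over 13946 genes above the mark of dim signal had a median of 0.11 with all arrays, and 11.7% were above 0.5. The same over pairs of other genes was not computed. By Pearson's r, Cldn5 was correlated most with Marveld2 (r = 0.54, rho = 0.44; permutation p = 0.061 and 0.16, two-sided, n = 14; adjusted over 9 relations, p = 0.47 for both). Next came Tjp1, which had the highest Spearman's rho (r = 0.44, rho = 0.63; permutation p = 0.10 and 0.018; adjusted p = 0.47 and 0.16) and F11r (r = 0.44, rho = 0.20; p = 0.18 and 0.51; adjusted p = 0.53 and 0.66). The other 5 genes had r of -0.02 to 0.20 with Cldn5, and 0 of the 9 relations passed the adjustment. Without MSC replicate 3 and vehicle replicate 2, the arrays farthest from the median of Cldn5, r was 0.45 for Marveld2, 0.18 for Tjp1 and 0.41 for F11r. Without both choroid plexus arrays these were 0.47, 0.42 and 0.28, and the other 5 ran from -0.12 (Ocln) to 0.15 (Esam).

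Each gene was then set against the endothelial content of the arrays, taken as the mean of 13 endothelial markers that include Pecam1, Flt1, Kdr, Tie1 and Tek and none of the 9 genes. This family of 9 relations was added after the values were seen. Cdh5 followed the marker mean closely (r = 0.83, rho = 0.81; permutation p = 0.00067 and 0.0011, two-sided, n = 14 arrays with group means removed; adjusted over 9, p = 0.006 and 0.005). Jam2 did so as well (r = 0.77, rho = 0.79; permutation p = 0.0018 and 0.00091; adjusted p = 0.008 and 0.005). Without vehicle replicates 2 and 4, the arrays farthest from the median of the marker mean, r was 0.78 and 0.79, and within replicates 1 to 5 it was 0.87 and 0.88. Without both choroid plexus arrays r was 0.70 and 0.72, and both missed the threshold (adjusted permutation p = 0.073, n = 12).

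Cldn5, itself an endothelial gene, had r = 0.05 and rho = 0.35 with the same marker mean (permutation p = 0.88 and 0.25, n = 14; adjusted p = 0.88 and 0.46). Without vehicle replicates 2 and 4 its r was 0.24, within replicates 1 to 5 it was 0.02, and without both choroid plexus arrays it was -0.17. Tjp1 had r = 0.51 (adjusted permutation p = 0.17, n = 14) and Esam 0.40 (adjusted permutation p = 0.38, n = 14), and 0.61 and 0.57 without both choroid plexus arrays. Without vehicle replicates 2 and 4, Esam had r = 0.71 and passed (adjusted permutation p = 0.048, n = 12). F11r had r = 0.07 with all arrays and -0.63 without these (adjusted permutation p = 0.089, n = 12). Without the choroid plexus arrays F11r was at -0.67 (adjusted permutation p = 0.073, n = 12). Ocln, Cldn12 and Marveld2 had r of 0.22, -0.23 and 0.31 with all arrays. Without the choroid plexus arrays they had -0.07, -0.44 and -0.14, so that Ocln and Marveld2 turned sign, and Ocln had -0.38 without vehicle replicates 2 and 4. That the relation of Cldn5 is weaker than that of Cdh5 was not tested.

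**Figure D3:**
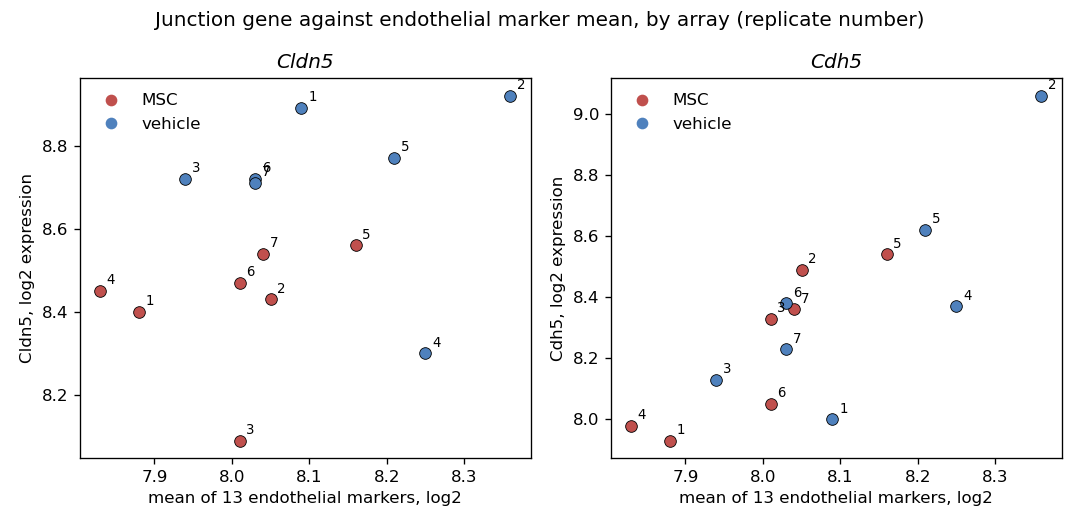
Log2 expression of Cldn5 (left) and Cdh5 (right) against the mean log2 value of 13 endothelial markers, with 1 point per array, MSC in red and vehicle in blue, numbered by replicate. Cdh5 rises with the markers (r = 0.83 with group means removed), and Cldn5, which was chosen for its group difference, has r = 0.05.

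Endothelial markers themselves had lower means in the MSC group for 10 of 13 genes, with a median difference of -0.15, and 0 passed the adjustment. Of all genes with 1 symbol, 52.3% had lower means. The marker mean ran from 7.83 to 8.16 in MSC and from 7.94 to 8.36 in vehicle arrays, with group means of 8.0 ± 0.11 and 8.13 ± 0.15 (SD). Pecam1, an adhesion molecule of the endothelial contact, differed by -0.26 ± 0.14 (SE), Flt1, a VEGF receptor, by -0.16 ± 0.10, and Tek, the angiopoietin receptor, by -0.059 ± 0.10. At an unadjusted p below 0.05 there were 3 markers, Cd34 (-0.40), Emcn (-0.34) and Ly6c (-0.33), named after their values were seen, beside 2.41% of all probe sets lower and 1% higher. Both group means of Ly6c, 4.88 and 5.22, lay below the mark of dim signal. The median over the markers was -0.050 without vehicle replicate 2 (9 of 13 lower) and -0.044 without both choroid plexus arrays (8 of 13). Within replicates 6 and 7 it was -0.0033 (7 of 13). Astrocyte and neuron markers lay the other way. In the MSC group 9 of 9 astrocyte markers (median 0.082) and 9 of 10 neuron markers (median 0.093) were higher, with 0 past the adjustment. Of oligodendrocyte markers 5 of 9 were lower (median -0.036), and of microglia markers 5 of 8 (median -0.0016). One microglia marker, P2ry12, was past an unadjusted p of 0.05 in limma (-0.27 ± 0.094, SE), named after its values were seen. Without both choroid plexus arrays the astrocyte median was 0.074 with 2 of 9 lower, and the neuron median 0.098 with 0 of 10 lower. That of oligodendrocyte markers was then -0.20 with 9 of 9 lower. Within replicates 6 and 7, 3 of 9 astrocyte and 2 of 10 neuron markers were lower. The part of the cell mixture in the differences of the 9 genes was not tested. With the marker mean as a covariate in limma, Cldn5 differed by -0.29 ± 0.11 (SE), Cdh5 by 0.10 ± 0.10 and Jam2 by 0.18 ± 0.073, and 0 of the 9 passed (adjusted p = 0.9996 each). Cldn5 had r = 0.05 with the marker mean within groups, so this covariate could change its difference little. Its value there is a description on the contrast on which Cldn5 was picked. The distance of Cldn5 above the marker mean on each array averaged 0.42 ± 0.17 on MSC arrays and 0.59 ± 0.25 on vehicle arrays (SD), a difference of -0.17. It was smaller than the vehicle mean on 6 of 7 MSC arrays, but the groups overlapped, from 0.08 to 0.63 and from 0.05 to 0.80. Without both choroid plexus arrays the difference was -0.20. Taken against Cdh5 in place of the marker mean, the distance of Cldn5 differed by -0.14. It was smaller than the vehicle mean on 4 of 7 MSC arrays. Among mural cell markers, 6 of 12 pericyte and smooth muscle markers were lower, with a median of -0.0042 (-0.065 without MSC replicate 2, 0.039 without MSC replicate 4, 0.042 without both choroid plexus arrays). Within replicates 6 and 7, 9 of the 12 were lower (median -0.081). One was past an unadjusted p of 0.05, Kcnj8, a pericyte potassium channel gene named after its values were seen (-0.17 ± 0.077, SE). Pdgfrb differed by -0.043 ± 0.10 and Rgs5 by -0.16 ± 0.13.

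Several epithelial junction genes were high on the arrays with high choroid plexus markers, and the part of these markers in the values was not tested. Of 12 choroid plexus and ependymal markers, 12 were highest on MSC replicate 4 among MSC arrays and 12 on vehicle replicate 2 among vehicle arrays, and the list mean ran from 6.18 to 8.87 in MSC and from 6.21 to 8.89 in vehicle arrays. Ocln had its highest value of each group on these arrays, 7.35 and 7.46, against at most 7.34 elsewhere. F11r was at 7.34 and 7.56, the second of 7 and the first of 7. Cldn1, an epithelial claudin, was at 6.88 and 7.48 against at most 6.07 elsewhere, and Cgnl1, paracingulin, at 8.38 and 8.97 against at most 8.02. Cldn2, the claudin of leaky epithelia, was at 5.26 and 5.95 against at most 4.70. Cldn2 is itself 1 of the 12 markers, so its values add nothing to theirs, and 5.26 lies below the mark of dim signal. Other members went the other way on MSC replicate 4, where Esam (6.60), Jam2 (9.75) and Marveld2 (6.40) had their lowest MSC values. On vehicle replicate 2, Jam2 (10.05) and Marveld2 (6.71) had their highest vehicle values and Esam (6.76) was the sixth of 7. Cldn5 was in the middle of the MSC arrays on replicate 4 (8.45) and at the top of the vehicle arrays on replicate 2 (8.92). Without both arrays the correlation of Ocln with F11r fell from r = 0.73 (n = 14) to 0.24 (n = 12), while that of Tjp1 with Jam2 was 0.67 beside 0.63.

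**Figure D4:**
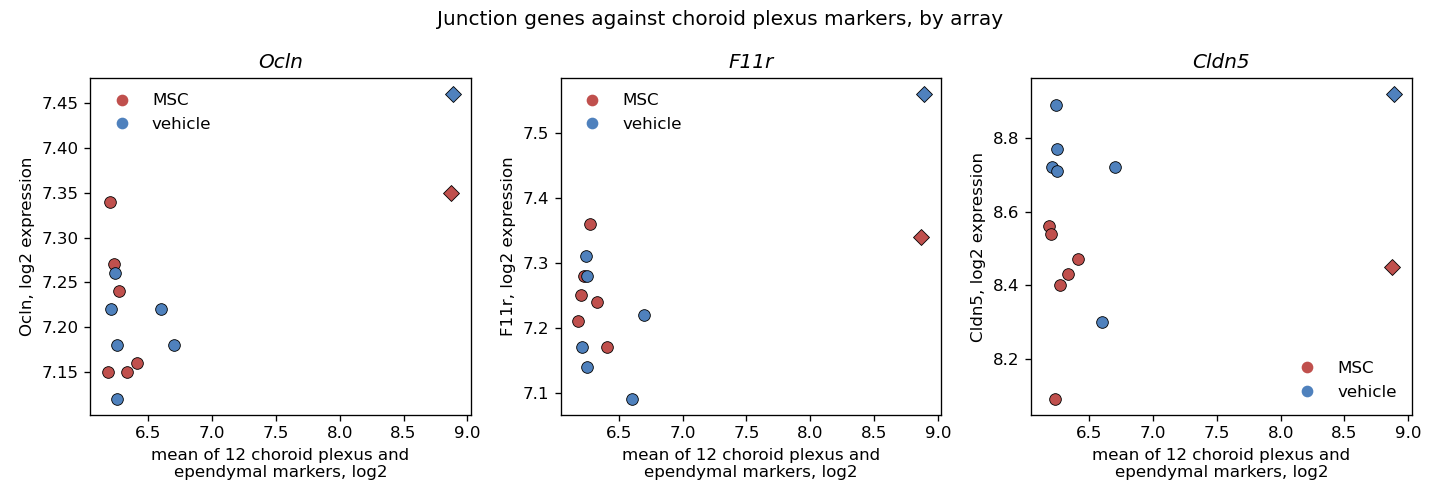
Log2 expression of Ocln, F11r and Cldn5 on every array against the mean log2 value of 12 choroid plexus and ependymal markers, with MSC arrays in red and vehicle arrays in blue. Diamonds are MSC replicate 4 and vehicle replicate 2, where the marker mean was 8.87 and 8.89; Ocln was highest in its group on both, and Cldn5 on vehicle replicate 2 alone.

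Residual blood and meninges were checked in the same way. The mean of 10 blood and platelet markers ran from 7.18 to 7.61 in MSC and from 6.86 to 7.67 in vehicle arrays, with 7 of 10 higher in the MSC group. It was highest on vehicle replicate 4 (7.67) and MSC replicate 3 (7.61), the arrays with the lowest Cldn5 value of each group. MSC replicate 2, at 7.57 for blood markers, had Cldn5 at 8.43. Vehicle replicate 2, the next highest vehicle array at 7.41, had the highest Cldn5 value of all arrays, 8.92. Of the 10 blood and platelet markers, 5 lay below the mark of dim signal. The part of residual blood in the Cldn5 values was not tested. The 12 meningeal and arachnoid markers had a mean of 7.66 to 8.71 in MSC and 7.70 to 8.52 in vehicle arrays, highest on MSC replicate 2 and vehicle replicate 2. Their median difference was 0.040 with all arrays, -0.068 without MSC replicate 2 and 0.23 without both choroid plexus arrays.

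In the wider junction and barrier programme, higher and lower means were nearly balanced on the deposited scale. Over 5 lists with 111 genes besides the 9, 0 passed the adjustment, 58 had higher and 53 lower means, and the median difference was 0.0053. Lower means were held by 47.7% of the 111 genes, against 52.3% of all genes with 1 symbol. After median centring of the arrays 69 were higher and 42 lower, after repeated quantile normalization 68 and 43, and without both choroid plexus arrays 69 and 42. With rescaling, the median over all tested probe sets rose too, from -0.0149 to 0.001 (median centring) and 0.0028 (quantile normalization). Without both choroid plexus arrays that median was -0.0151. None of the 111 had a difference as low as that of Cldn5, which was picked on this contrast. Of all tested probe sets, 1.04% had a difference as low or lower. At an unadjusted p below 0.05, 2.41% of all probe sets were lower and 1% higher. Of the 22098 genes with 1 symbol, 354 were lower and 258 higher at that p. Among the 111 there were 2. Both were higher: Slc6a6, the taurine transporter (0.15 ± 0.056, SE), and Reck, a Wnt7 coreceptor component (0.16 ± 0.070), both named after their values were seen.

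Among 29 other tight junction genes, 15 were lower and 14 higher, with a median of -0.0027. Jam3, encoding JAM-C, differed by -0.10 ± 0.12 (SE) and Cldn10 by -0.096 ± 0.059. Cldn11, the claudin of myelin and arachnoid, differed by 0.093 ± 0.18, and Lsr, the angulin of tricellular corners that recruits tricellulin, by 0.023 ± 0.055. Of 22 adherens junction genes, 13 were higher and 9 lower (median 0.0075). Ctnnb1, beta-catenin, differed by 0.050 ± 0.070 and Ctnnd1, p120-catenin, which holds VE-cadherin at the membrane, by -0.037 ± 0.067.

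Among 17 barrier transport genes, 9 were higher and 8 lower (median 0.015). Slc2a1, the GLUT1 glucose transporter, differed by -0.061 ± 0.15 (SE), Abcb1a, the P-glycoprotein pump, by -0.016 ± 0.10 and Mfsd2a, a lipid transporter that limits transcytosis, by 0.041 ± 0.10. Regulators of the barrier had 15 higher and 13 lower of 28 (median 0.0061). Fzd4, the norrin receptor, differed by 0.061 ± 0.066 and Sox17 by 0.054 ± 0.055. Foxf2, a pericyte factor, differed by -0.025 ± 0.092, with both group means, 5.34 and 5.37, below the mark of dim signal. Sox18, an endothelial transcription factor, differed by 0.13 ± 0.091, with both group means, 5.44 and 5.31, also below that mark. Of 15 genes linked to vessel leak or activation, 7 were higher and 8 lower (median -0.0025). Plvap, the diaphragm protein that mature brain vessels lack, stood at 5.0 in both groups, below the same mark, Cav1 differed by 0.052 ± 0.053 and Vcam1 by -0.010 ± 0.090. The medians of the tight junction and the leak lists turned sign after median centring, to 0.013 each. Leaving out 1 array took the median of each of the 5 lists to both sides of 0, most widely for transport, from -0.036 (without vehicle replicate 4) to 0.035 (without MSC replicate 7), and for the other tight junction genes, from -0.011 (without vehicle replicate 3) to 0.040 (without vehicle replicate 2).

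The genes outside the 9 with a pattern across arrays most like that of Cldn5 came from other functions. Over 13946 genes above the mark of dim signal, with group means removed, the highest correlations over the 14 arrays were those of Spats2 (r = 0.93), Nubp2, an iron-sulfur cluster assembly factor (0.92), Zfpm1, a GATA cofactor (0.91), Plec, plectin, a cytoskeletal linker (0.91), and Prrc2b (0.89). These are the top of a long ranking on few arrays, and 11.7% of ranked genes had r above 0.5. Without both choroid plexus arrays these 5 had r of 0.88 to 0.95. None of them shared the group difference of Cldn5, with differences of 0.0068 to 0.13. Within the ranking, Marveld2 came at place 1308, Tjp1 at 2181, F11r at 2208, Cdh5 at 6161 and Esam at 8921.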

How the data were processed

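RNA from 100 ng of total RNA per sample was measured on 14 Affymetrix whole-transcript arrays, 7 MSC and 7 vehicle, grouped by title. The deposited values are on the log2 scale; per the submitters' processing notes, they come from RMA and Affymetrix Expression Console. Versions, settings and the genome build are not given in the notes used here. RMA pulls small changes of dim probe sets towards 0. Of 70580 probe sets, 1738 controls (AFFX, ERCC and RG) were left out. Symbols came from the platform annotation, updated through Entrez identifiers (1 changed). Of 228 list entries, 216 matched.

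Groups were compared with limma 3.58.1 (R 4.3.3; lmFit, eBayes, no covariate) over 68842 probe sets with Benjamini-Hochberg adjustment, threshold 0.05. No label says that arrays are separate animals, so p-values reflect only the spread among these samples, part of which may be technical. Precision is limited by the number of arrays, and the typical (median) half-width of a 95% interval was 0.15. Data were simulated with 7 arrays per group and independent noise for each probe set. There limma recovered 67% of 200 probe sets changed by 0.5 and 95% of 200 changed by 1, with 19 false calls. Noise shared between probe sets, and differences as small as the -0.30 of Cldn5, were not simulated. Correlations used deviations from group means and 100000 permutations within groups.

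The genes and lists were chosen with earlier results of these data known. Named are the 9 genes, 5 by likeness to Cldn5, and a set of barrier genes fixed by name, among which Ptprb and Slco1a4 had no probe set with 1 symbol. Alternatives covered blocks, batches, scaling, filters and left-out arrays.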

Additional observations from a re-analysis of the deposited data

Results flagged for a closer look

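In 18 groups of 7 arrays (9 genes in 2 groups), a test of whether the most extreme array lies far from its nearest neighbour picked out 3, where chance picks about 1 in 20. Cldn5 on MSC replicate 3 was the lowest MSC value at 8.09, with the next at 8.40 (gap over range 0.66, above the 95% critical value of Dixon's test). Cldn5 on vehicle replicate 4 was the lowest vehicle value at 8.30, with the next at 8.71 (0.66). Ocln on vehicle replicate 2, the array with high choroid plexus markers, was the highest vehicle value at 7.46, with the next at 7.26 (0.59).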

How the results depend on the processing

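Over all probe sets, 0 passed the adjustment in every alternative but one: within replicates 6 and 7, limma called 1, a probe set with no symbol that differed by -5.26 (adjusted p = 0.00208) and by -2.06 with all arrays. None of the 9 genes or of the 111 pathway genes passed in any of 25 alternatives. Cldn5 stayed between -0.37 and -0.21 throughout, on the same arrays on which it was picked. Cdh5 turned from -0.16 to 0.10 with the endothelial marker mean as a covariate. The median over the 9 genes, 0.0011 with all arrays, ran from -0.017 to 0.039 when single arrays were left out, and stood at 0.017 after quantile normalization and median centring. The smaller differences of Cldn12, Ocln, Tjp1, Esam, F11r and Jam2 each turned sign without at least 2 of the 14 arrays. The 9 genes have 1 probe set each, so averaging probe sets gives the values printed. The replicate number as a block left Cldn5 at -0.30 and the count of passing genes at 0. Same-numbered arrays deviated together with r over 0.1 in 3 of 7 pairs (-0.312 to 0.274). Whether the numbers pair the samples cannot be told from these values. With MSC replicate 7 counted as vehicle, Cldn5 differed by -0.29. The covariate and the removal of both choroid plexus arrays were chosen after seeing the data.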
